A study of Mus musculus with 3 samples.

Results

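The Rhox genes, a family of reproductive homeobox genes that lie side by side on the mouse X chromosome, were read on 3 Agilent 2-colour arrays of embryoid bodies. The members were 10 genes chosen by name: Rhox1, Rhox2a, Rhox4b, Rhox5, Rhox6, Rhox8, Rhox9, Rhox10, Rhox11 and Rhox13. Of these, 8 had a probe under their own name, with 10 probes between them, of 39429 probes and 30175 gene names on the array. Rhox2a and Rhox4b had none under their own name, and the probes that list their RefSeq transcripts carry the names of near-identical copies (Rhox2c, Rhox2h and Rhox4g), so those are described beside the members. Another 15 Rhox names had 19 probes.

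Embryoid bodies are clusters that embryonic stem cells build in suspension; without LIF, a cytokine that holds stem cells in their state, they turn into derivatives of all germ layers. One group was wild type. The other, called mutant+CT here (labelled Dido3deltaCT+HADido3CT), carried a Dido3 protein without its C-terminal region and overexpressed that region, which exon 16 encodes. Both grew for 10 days in suspension, without LIF, on low attachment plates. No sample had the truncation alone or the added region alone, so the 2 cannot be told apart, and the number of clones behind each line is not given in the sources used here. Each array carried 1 wild-type and 1 mutant+CT RNA, and arrays 1 to 3 are the biological replicates 1 to 3 of the labels. Wild type was in the red dye Cy5 on arrays 1 and 3 and in the green dye Cy3 on array 2.

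Rhox proteins are transcription factors with a homeodomain, the part that binds DNA. The cluster is read mainly in testis, ovary, placenta and early extraembryonic tissue, and many of its genes are held silent by DNA methylation in other cells of the embryo. Rhox5, first described as Pem, is the founding member and is active in embryonic stem cells and extraembryonic lineages. By position the cluster falls into an alpha part (Rhox1 to Rhox4, of which Rhox2, Rhox3 and Rhox4 exist in many copies), a beta part (Rhox5 to Rhox9) and a gamma part (Rhox10 to Rhox13).

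What a Rhox value means depends on the probe, and 3 sets of probe sequences bear on the results. The first is the probe with the highest ratio among the members, for Rhox8 at chrX:35231462-35231521 (mm9, minus strand). It is shown because 44 of its 60 bases are a run of the repeat GAA, in capitals, and 16 lie outside it.
Rhox8 repeat probe: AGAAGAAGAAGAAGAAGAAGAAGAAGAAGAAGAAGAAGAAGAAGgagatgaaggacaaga
The probes of Rhox13 and Rhox9 are shown as members without such a repeat. The Rhox13 probe has ends 1311 bases apart (chrX:35474985-35476295, mm9, plus strand) for a 60-base sequence, so the file places it across a gap in the genome. The Rhox9 probe lies at chrX:35254147-35254206 (mm9, minus strand).
Rhox13 probe: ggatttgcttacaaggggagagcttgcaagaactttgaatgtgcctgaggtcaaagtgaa
Rhox9 probe: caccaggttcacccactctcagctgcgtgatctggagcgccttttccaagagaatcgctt
The third set shows how close the copies are. The Rhox4a and Rhox4g probes differ at 2 of 60 bases, C54T and T58C from Rhox4a to Rhox4g, counted from the 5′ end of the probe. Their bases 31 to 60 follow, with the differing bases in capitals.
Rhox4a probe: agtcagttaggaatgaatgatgaCgccTct
Rhox4g probe: agtcagttaggaatgaatgatgaTgccCct
RNA of one copy can bind the probe of another, so these probes are read as a group.

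Between 67.4% and 77.9% of the probes in a channel were well above background and no spot was saturated. Over the 26318 probes kept (well above background on all 3 arrays in at least 1 group), the log2 ratios correlated at 0.21 between arrays 1 and 2, 0.56 between 1 and 3 and 0.37 between 2 and 3 (Pearson, across probes, which are not independent). The files place the 3 arrays on 1 slide and in 1 scan. Neural, muscle and blood markers of embryoid bodies were all detected (11 of 11). Ratios below are on the log2 scale, mutant+CT divided by wild type, with the SD over 3 arrays after each mean; the number of arrays limits their precision. Levels are log2 intensities per dye channel, put on a common scale between arrays, and single levels are compared only within a probe. A summed level adds the levels of a list's probes off the log scale, so the brightest probes weigh most in it. In these mixed bodies, fewer cells of a type and less RNA per cell cannot be told apart.

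No Rhox probe passed the test. Limma with Benjamini-Hochberg adjustment called 0 of the 8 member probes kept, and 115 of all 26318 kept probes (0.437%). At an unadjusted p under 0.05 the count was 2 of 8, the repeat-rich Rhox8 probe and Rhox13, against 4346 of 26318. Without the repeat-rich probe it was 1 of 7. Without the filter on dim probes limma called 0 of 10 members and 0% of 39002 probes. There, 2 members had an unadjusted p under 0.05, against 5294 of 39002. Under Agilent's processed signals and under a trended prior 1 member was called, the repeat-rich Rhox8 probe (adjusted p = 0.0377 under both, limma). Without array 1 another was called, Rhox13 (adjusted p = 0.0345, limma). In the same order, these settings called 753, 469 and 125 of all 26318 kept probes. Without array 2 or without array 3, limma with the main settings called 0 probes on the whole array, so its 115 calls, Tet1 and Ctsj below among them, are lost there.

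Most member ratios lay above 0. Their median over all 10 probes, dim ones included, was 0.59 (0.57 without the repeat-rich probe). It was -0.003 for all probes on the array and -0.01 for all kept probes. The member median moved with the array: -0.12 on array 1, 1.01 on array 2 and 0.84 on array 3. The median of the member means was thus 1.00 without array 1 and 0.21 without array 2. Without the repeat-rich probe the medians were -0.16, 0.64 and 0.77 on arrays 1 to 3, so array 1 stayed the lowest and array 3 became the highest. On array 1, 3 of 10 member probes were higher in mutant+CT; on array 2 all 10 were, and on array 3 there were 8. Among all probes the share that was higher lay near an even split on each array (51.2%, 49.8% and 50.3%). Arrays 1 and 3 have the same dye orientation, and array 2 the opposite one, so array 1, the low one, shares its dyes with array 3.

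Counted over every array, 3 of 10 member probes were higher in mutant+CT each time (Rhox8's repeat-rich probe, Rhox10's RefSeq probe and Rhox13), beside 17.5% of all probes. None was lower each time, beside 16.0%. A difference of at least 2-fold on every array was seen for 1 member probe, the repeat-rich one, higher in mutant+CT, beside 1.37% of all probes; the lower direction held none, beside 0.664%. In 3 of 10 member probes, the same ones that were higher each time, all mutant+CT levels lay above all wild-type levels, beside 7.46% of all probes. Without the repeat-rich probe, 2 of 9 were higher each time, 0 by at least 2-fold, and the levels of the same 2 did not overlap. Of these 2, the Rhox10 probe was dim and was above background in wild type on 1 array only. Its ratio on array 1 was 0.03, and its highest wild-type level (6.68) lay just under its lowest mutant+CT level (6.71).

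**Figure D1:**
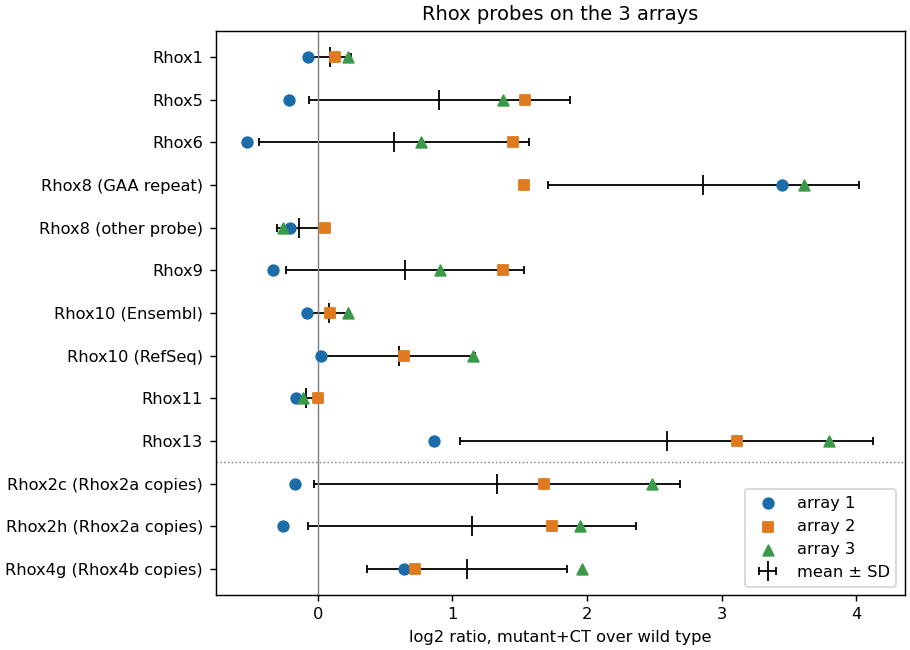
Mutant+CT over wild type on the log2 scale (x axis) for the 10 member probes and, under the dotted line, the 3 probes that list Rhox2a or Rhox4b transcripts. Symbols are the 3 arrays and black bars the mean ± SD. Rhox5, Rhox6, Rhox9, Rhox2c and Rhox2h lie below 0 on array 1 and above 0 on arrays 2 and 3.

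Rhox13, a germ-cell member at the gamma end, had the highest ratio of the members without a repeat. Its wild-type levels were 8.58, 8.88 and 8.41 on arrays 1 to 3, and its mutant+CT levels 9.45, 11.996 and 12.21. The wild-type values lay close together, while in mutant+CT array 1 stood well below the other two; the groups did not overlap. The ratios were 0.87, 3.11 and 3.80, that is 1.82-fold, 8.65-fold and 13.9-fold higher, with a mean of 2.59 ± 1.53 (adjusted p = 0.129, limma). Without array 1 the mean was 3.46 and it passed (adjusted p = 0.0345); without array 2 or array 3 it did not, and the mean was 2.33 or 1.99.

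Rhox5 was among the bright probes, with a mean log2 intensity over both channels of 15.5. The files give its probe no genome position. Its wild-type levels were 15.53, 14.48 and 15.07, and its mutant+CT levels 15.32, 16.02 and 16.45. On array 1 wild type was slightly higher, on arrays 2 and 3 mutant+CT was, and the groups overlapped. The ratios were -0.21, 1.54 and 1.38, with a mean of 0.90 ± 0.97 (adjusted p = 0.351, limma), and 1.46 without array 1.

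Rhox6 and Rhox9, known as Psx1 and Psx2 from their expression in placenta, both had a ratio below 0 on array 1 and above 0 on arrays 2 and 3. Rhox6 had wild-type levels of 13.97, 11.49 and 11.21 and mutant+CT levels of 13.45, 12.93 and 11.98. Rhox9 had wild-type levels of 14.20, 12.41 and 12.39 and mutant+CT levels of 13.87, 13.79 and 13.31. In both genes the wild-type bodies of array 1 held the highest level of all 6 samples, and the groups overlapped. Array 1 thus differed in wild type for Rhox6 and Rhox9 and in mutant+CT for Rhox13. The Rhox6 ratios were -0.53, 1.45 and 0.77 (mean 0.57 ± 1.00, adjusted p = 0.575, limma). The Rhox9 ratios were -0.33, 1.38 and 0.91 (mean 0.65 ± 0.88, adjusted p = 0.470, limma).

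**Figure D2:**
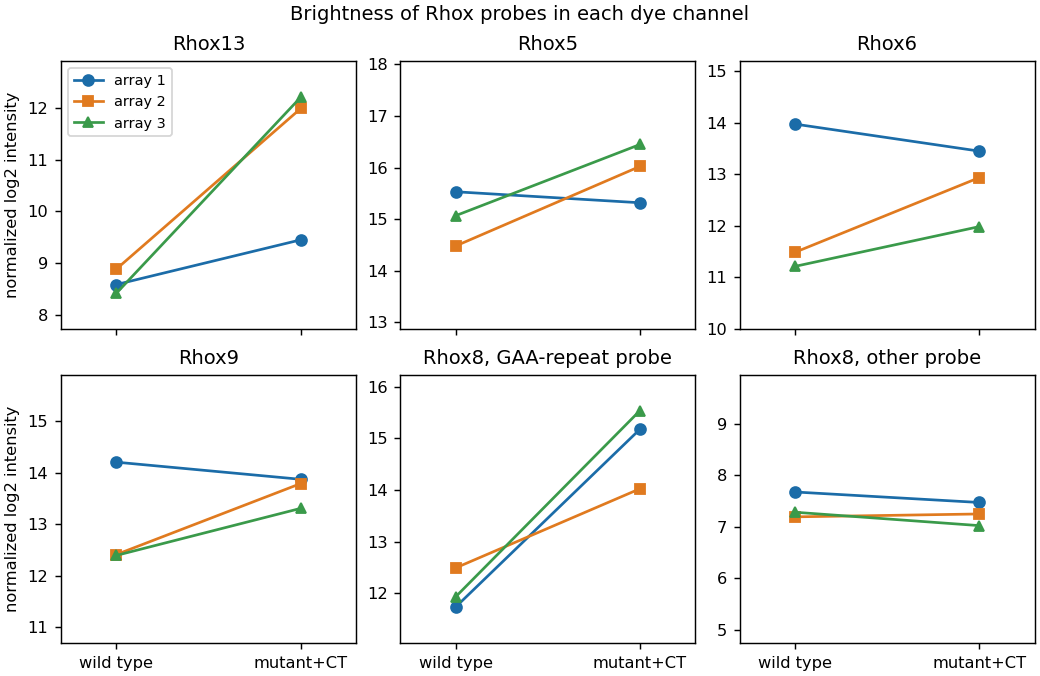
Normalized log2 intensity (y axis) of 6 member probes in wild type and mutant+CT, with a line for each of the 3 arrays; every panel spans the same number of log2 units. Rhox13 is flat in wild type and lower on array 1 in mutant+CT, Rhox6 and Rhox9 start highest on array 1 in wild type, and the 2 Rhox8 probes do not move together.

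The 2 probes of Rhox8, a gene known from Sertoli cells, gave different answers. The repeat-rich probe had wild-type levels of 11.73, 12.49 and 11.93 and mutant+CT levels of 15.18, 14.02 and 15.54, which did not overlap. Its ratios were 3.45, 1.53 and 3.61 (mean 2.86 ± 1.15, adjusted p = 0.0779, limma). The other probe, at chrX:35227953-35228012 (mm9), has no long repeat; its wild-type levels were 7.68, 7.19 and 7.28 and its mutant+CT levels 7.47, 7.25 and 7.02. These overlapped, with ratios of -0.20, 0.06 and -0.26 (mean -0.14 ± 0.17, adjusted p = 0.834, limma).

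The ratio of the repeat-rich probe recurred in other probes with a GAA run. There were 79 probes on the array with a run of GAA or of its complement TTC of at least 12 bases, and 71 of them were higher in mutant+CT on every array. Of the 29 with a run of at least 30 bases, all 29 were higher on every array, with medians of 3.61, 1.34 and 3.67 on arrays 1 to 3, and Rhox8 ranked 21 from the top. Of the other probes with the same run length of 44, one named Gcm1 averaged 3.07 and an unnamed one 2.91. The 73 probes with the run written as GAA had a median of 2.88 and the 6 with TTC a median of 0.06. The TTC runs were short (12 to 15 bases), and the 23 GAA probes in that range had a median of 1.26. The ratio of this probe is therefore given apart from the family, and the other Rhox8 probe is the one read for the gene.

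**Figure D3:**
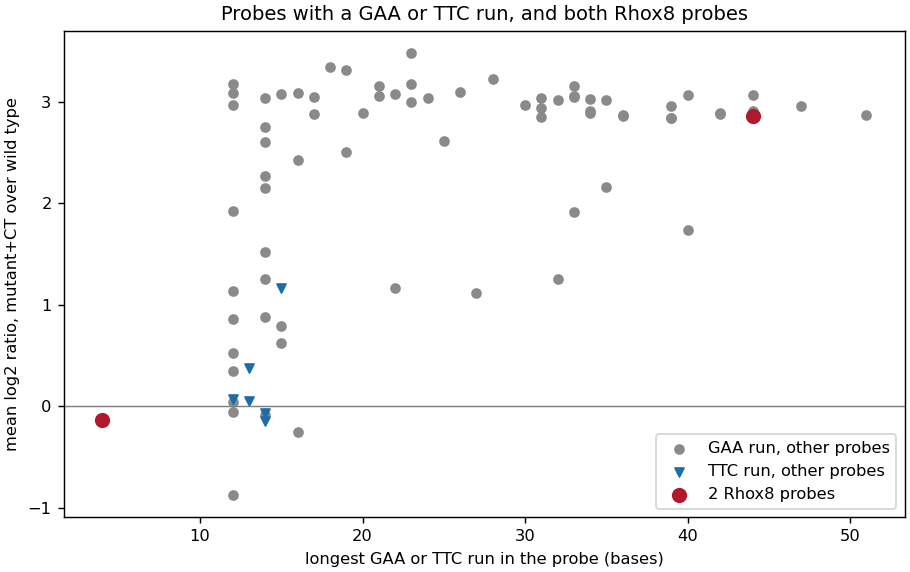
Mean log2 ratio (y axis) against the longest GAA or TTC run (x axis, bases) for the 79 probes with a run of at least 12 bases, and for both Rhox8 probes in red. The Rhox8 probe with 44 bases lies at 2.86 among probes of other genes with long GAA runs, and the other Rhox8 probe at -0.14.

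Rhox1, Rhox10 and Rhox11, members best known from testis, were dim. Rhox1 had wild-type levels of 6.50, 7.005 and 6.78 and mutant+CT levels of 6.43, 7.14 and 7.01, which overlapped, and a ratio of 0.10 ± 0.15 (adjusted p = 0.889, limma). Rhox11 was not well above background on any array in either group, so no fold is given. Rhox10, described in spermatogonial stem cells, had 2 probes. The RefSeq probe (chrX:35424740-35424799, mm9) was above background on 3 arrays in mutant+CT and on 1 in wild type, with wild-type levels of 6.68, 6.15 and 6.02 and mutant+CT levels of 6.71, 6.79 and 7.17. The groups lay next to each other without overlap, and the ratios were 0.03, 0.64 and 1.15 (mean 0.61 ± 0.56, adjusted p = 0.379, limma). From Agilent's processed signals, which replace background handling and normalization together, the mean was 2.59, and with no background subtraction alone it was 0.59. The second probe, named Rhox10 through an Ensembl transcript, lies beyond Rhox11 in the file's coordinates (chrX:35443086-35443145, mm9) and ends in the same 17 bases as the Rhox11 probe, TTGGTGGAATCCAAGAA. It was above background on 2 arrays in each group, with a ratio of 0.08 ± 0.15 (adjusted p = 0.910, limma without the filter).

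The copies that stand for Rhox2a were, like Rhox5, slightly lower in mutant+CT on array 1 and higher on arrays 2 and 3. The Rhox2c probe, whose annotation lists transcripts of Rhox2a, Rhox2b, Rhox2c and Rhox2e, had wild-type levels of 7.79, 8.18 and 7.58 and mutant+CT levels of 7.63, 9.86 and 10.06. The groups overlapped through array 1. Its ratios were -0.17, 1.68 and 2.48 (mean 1.33 ± 1.36, adjusted p = 0.299, limma), and it had the largest mean ratio of the other Rhox names. The Rhox2h probe that lists Rhox2a had wild-type levels of 8.33, 8.14 and 7.91 and mutant+CT levels of 8.08, 9.88 and 9.87, which overlapped, and a ratio of 1.15 ± 1.22 (adjusted p = 0.325, limma).

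For Rhox4b, first described as Ehox in differentiating stem cells, the Rhox4g probe stands in. It had wild-type levels of 8.68, 8.94 and 7.83 and mutant+CT levels of 9.32, 9.66 and 9.79, with no overlap. Its ratios were 0.64, 0.72 and 1.97 (mean 1.11 ± 0.74, adjusted p = 0.203, limma). The Rhox4a probe, 2 bases away, gave 0.61, 0.76 and 1.91 (mean 1.10 ± 0.71, adjusted p = 0.199, limma), the smallest p among the other Rhox names. Unlike the Rhox2 probes, these 2 were higher in mutant+CT on array 1 as well.

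The rest of the cluster was uneven. The 8 Rhox3 probes had a median of 0.00, with 2 kept, and the 2 Rhox7 probes a median of 0.02. Rhox12 gave 0.65 ± 0.54 (adjusted p = 0.346, limma). By part of the cluster the medians were 0.10 in alpha (17 probes), 0.57 in beta (7 probes; 0.34 without the repeat-rich one) and 0.61 in gamma (5 probes), and limma called none of the 20 kept Rhox probes. Probes near 0 lay between probes with higher ratios all along the cluster.

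**Figure D4:**
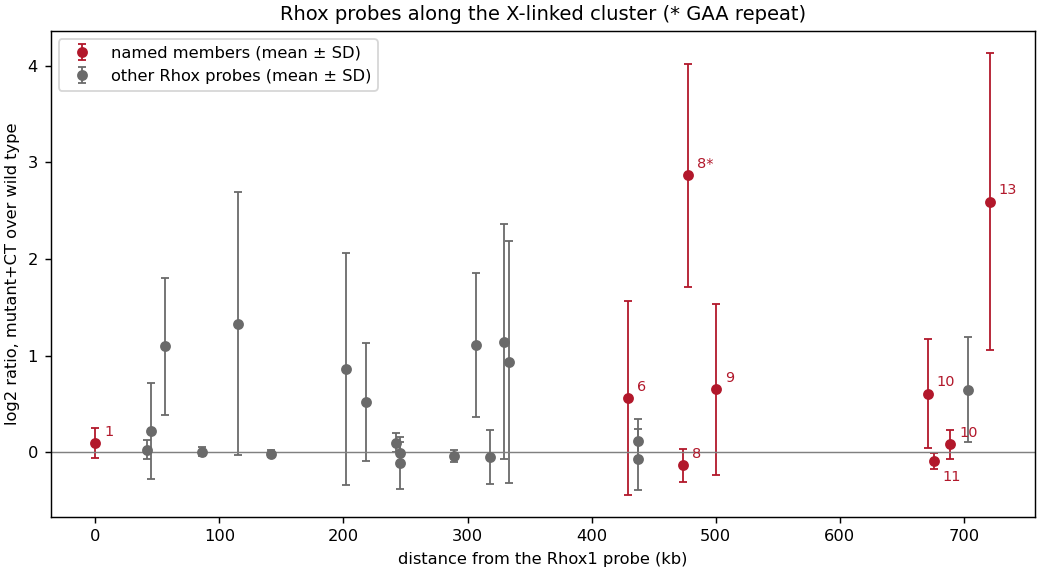
Mean log2 ratio ± SD over 3 arrays (y axis) of the 28 Rhox probes with a position, against the distance from the Rhox1 probe (x axis, kb). Members are red with their number and other Rhox probes grey. Probes near 0, most of them dim, alternate with probes above 1, and the bars of most high probes are wide.

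Genes around the cluster and between its members had a median near 0. Within 1000000 bases of it, 51 probes for 38 gene names had a median of 0.02, and 0 were called by limma (4 with an unadjusted p under 0.05). Their medians on arrays 1 to 3 were 0.12, -0.12 and 0.17, and that of array 1 lay above 0, where the members' lay below 0. Slc25a43, a mitochondrial carrier gene, had both the smallest p and the largest ratio (1.52 ± 0.51, adjusted p = 0.0952, limma). One of these names, Gm6310, is the pseudogene Rhox2-ps by its RefSeq synonym, and its ratio was 0.77 ± 0.58. The window also holds other names inside the cluster or at its edge. Gm9, next to the Rhox1 probe, gave 1.504 ± 0.95, and an unnamed probe beside Gm6310 gave 0.73 ± 0.47. Both, with Gm6310 and Slc25a43, are the 4 with an unadjusted p under 0.05 (limma). Inside the cluster, NAP103898-1 (1.39 ± 1.49) was below 0 on array 1 only, and Btg1c gave -0.34 ± 0.48. Of the 38 names, 9 were higher on every array and 6 lower. Chromosome X as a whole had a median of 0.00 over 1635 probes, and limma called 7 of 1075 kept.

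A list of 20 genes of DNA methylation and of repression through G9a (Ehmt2) and partners such as E2f6, Max and L3mbtl2 was read as well. Their action on the cluster was not tested. The list's median was 0.07, and limma called 1 of 20. That gene was Tet1, an enzyme that oxidises methylated cytosine, with ratios of 1.86, 2.09 and 2.29 (mean 2.08 ± 0.22, adjusted p = 0.0493). It was higher in mutant+CT on each array, including array 1. Dnmt1 (-0.26 ± 0.52), Dnmt3a (-0.09 ± 1.08), Dnmt3b (0.99 ± 0.35), Dnmt3l (1.47 ± 1.29) and Ehmt2 (-0.26 ± 0.56) did not pass. Of the 3 genes described as responding to Rhox5 (Unc5c, a netrin receptor, Adipoq and Ins2), limma called none and 0 had an unadjusted p under 0.05. Unc5c had the largest ratio and turned with the array, at 1.49, -1.94 and -3.06 (mean -1.17 ± 2.37).

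Rhox genes are active in several lineages that embryoid bodies can hold, so markers of those lineages were read on the same arrays; their part in the Rhox values was not tested. Beside the counts of each list below, 17.5% of all probes were higher on every array and 16.0% lower. The lists share some genes, so their counts are not separate. Tfap2c is in the trophoblast and germ-cell lists, Prdm14 in the naive pluripotency and germ-cell lists, and Gata4 in the Sertoli and endoderm lists. Of 19 trophoblast markers with a probe, 11 were higher in mutant+CT on every array and none lower, with a median of 0.84. Gcm1 is one of the 11, but its probe holds a GAA run of 44 bases, with ratios of 3.74, 1.80 and 3.67 on arrays 1 to 3. Like the repeat-rich Rhox8 probe, it is not read for the gene, although the count and the median include it. Esrrb, another of the 11, is also in the naive pluripotency list. Cdx2 (1.62, 0.50 and -0.84 on arrays 1 to 3), Hand1 (0.97, -1.50 and -1.29) and Elf5 (-0.05 ± 0.22) were among the rest. The summed level of the list, without Gcm1, was 13543 to 25856 in wild type and 33129 to 69875 in mutant+CT, with no overlap. Limma called 1, Ctsj, a placental cathepsin (3.43 ± 0.41, adjusted p = 0.0435), while Tpbpa, which marks spongiotrophoblast, was not well above background on any array. The list's medians were 0.79, 0.81 and 0.83 on arrays 1 to 3, but its markers differed in how they followed the arrays. Some had their lowest ratio on array 1, such as Krt7 (-0.97, 1.44 and 0.90) and Prl3d1 (0.14, 3.90 and 2.79). Others had their highest ratio there, such as Eomes (2.36, 0.52 and 0.52), Gata3 (2.40, 0.37 and 1.64), Cdx2 and Hand1.

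For naive pluripotency markers the median was 1.59, and 11 of 14 were higher on every array. The others were Klf4 (-0.68 ± 1.01), Sox2 (0.16 ± 0.62) and Nanog (0.09 ± 0.09), whose probe was dim (mean log2 intensity 6.79). Bright probes such as Dppa5a (mean log2 intensity 15.98) weigh most in the summed level of the list. That level was 72605 to 131268 in wild type and 166219 to 520547 in mutant+CT. None was called by limma, with 10 of 14 at an unadjusted p under 0.05. Nr0b1, an orphan nuclear receptor of stem cells, had the smallest p and the largest ratio (2.67 ± 0.91, adjusted p = 0.0690).

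Germ-cell markers were mixed. Of 15, 8 were higher on every array and 2 lower, and limma called none (7 had an unadjusted p under 0.05). Dppa3, an early germ-cell and stem-cell gene, had the largest ratio (2.30 ± 2.33, adjusted p = 0.270), and Kit, a receptor on germ cells and other progenitors, had the smallest p (-1.40 ± 0.59, adjusted p = 0.118). The list's medians were 0.23, 0.51 and 1.58 on arrays 1 to 3. Its summed levels overlapped, at 18482 to 37579 in wild type and 18090 to 53664 in mutant+CT.

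Sertoli and gonadal markers gave 1 of 12 higher on every array (Trf, transferrin, 2.24 ± 1.09, adjusted p = 0.105, limma) and 4 lower. Their summed level was 12112 to 20397 in wild type and 8999 to 49916 in mutant+CT. The defining markers Amh and Fshr were not well above background on any array. Of 14 markers of visceral and parietal endoderm, 5 were higher on every array (Apoa1, Hnf4a, Afp, Amn and Ttr). Lower on every array were 7 (Col4a1, Lama1, Thbd, Sox7, Pth1r, Sox17 and Gata4), so a sum over the list mixes opposite directions. That summed level was 219039 to 394137 in wild type and 131711 to 307786 in mutant+CT. Limma called none of the 14. Apoa1, an apolipoprotein, had the smallest p (2.12 ± 0.58, adjusted p = 0.0668) and Thbd, thrombomodulin, the largest ratio (-3.00 ± 1.58, adjusted p = 0.106). Neural, muscle and blood markers had a median of -1.16. Of 11, 1 was higher on every array (Pecam1) and 4 were lower (Pax6, Sox1, Tubb3 and Hba-x). Their summed levels overlapped, at 9019 to 28203 in wild type and 4382 to 51830 in mutant+CT. Pax6, a neural transcription factor, had the lowest ratio (-3.19 ± 1.35, adjusted p = 0.0803, limma). The muscle markers turned with the array. On arrays 1 to 3 Actc1 gave 3.79, -1.42 and -1.76, Myl7 4.05, -1.78 and -1.71, and Tnnt2 3.78, 1.18 and -0.26.

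The genes closest to Rhox5, the brightest member without a repeat, were Adtrp, Vwf, Septin1, the transcript NAP113006-1 and Cdh20. They were found among 20390 genes by the Euclidean distance of the 3 log2 ratios, which was 0.07 for Adtrp and 0.29 for Cdh20. Adtrp had ratios of -0.15, 1.56 and 1.41, close to those of Rhox5 on each array. Likeness over 3 arrays is given as a description.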

How the data were processed

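RNA from wild-type and mutant+CT embryoid bodies was compared on 3 two-colour arrays (1 µg of RNA amplified, 300 ng of cRNA per dye, per the labels). The deposited scanner files hold spot and local background intensity, which per the file headers came from Agilent Feature Extraction 10.7.3.1, Agilent's processed intensity and a log10 ratio of red over green, also deposited by the authors. The authors' deposited value table holds log2 ratios with column medians of -0.02, 0.01 and -0.01; it follows mutant+CT over wild type (correlations of 0.994 to 0.998 with the ratios computed here), and how it was scaled and centred stays unknown.

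Ratios were computed in R 4.3.3 with limma 3.58.1: normexp (offset 50), loess, control spots at weight 0, outlier spots missing, spots averaged per probe, and array 2 turned. Probes well above background on all 3 arrays in 1 group and with 3 ratios were kept. The test was limma's moderated test of the mean ratio against 0, with Benjamini-Hochberg adjustment over all 26318 kept probes at 0.05. Levels per channel followed quantile scaling of average intensities. Positions are the files' mm9 coordinates; names follow the files, with RefSeq (GRCm38.p6) for transcripts. A probe is repeat-rich with a GAA or TTC run of 12 bases or another unit's run of 20. The steps were tested on simulated data. Alternatives are in the closing section.

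Members and lists were chosen with earlier results of these data known. Named are all members and, for each list, the gene with the smallest p and that with the largest ratio at its brightest kept probe. Neighbours other than Slc25a43, the Gcm1 probe, the DNA methyltransferases and defining markers were named after their values were seen. Prl2c2 of the trophoblast list was not analysed here.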

Additional observations from a re-analysis of the deposited data

How the results depend on the processing

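The number of probes called moved with most choices: 16 with no background subtraction, 753 with Agilent's processed signals, 40 with median centring, 469 with a trended and robust prior, 673 at an adjusted p under 0.1, and 0 without the filter, with 1 probe a gene or with a dye term, against 115. Leaving out an array gave 0 to 125. The number of Rhox probes called was 1 with processed signals, with the trended prior and at an adjusted p under 0.1, each time the repeat-rich Rhox8 probe, and 0 to 1 on leaving out an array (Rhox13 without array 1). The count at least 2-fold apart on every array, 1, was 2 with median centring and 0 without GAA-run probes, and 1 to 3 on leaving out an array. The count with 1 sign on every array, 3, was 4 with median centring, 2 with processed signals, with the deposited table and without GAA-run probes, and 3 to 8 on leaving out an array. The quantile setting leaves ratios as they are by construction. The member median stayed above 0 in each setting run, from 0.21 (without array 2) to 1.00 (without array 1). Of single ratios, Rhox1 and the second Rhox10 probe, both near 0, turned sign in 1 and 2 of 9 settings. The test of ratios within arrays is itself paired by array, so no fit with a further block was run.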
